A study of Homo sapiens with 8 samples.

Results

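The conserved γ-H2AX peaks of HCT116 TRAIP-mAID cells that lie in chromosome interiors are described here. An interior peak was one whose midpoint was at least 15 Mb from both ends of its chromosome on hg38, for chromosomes 1 to 22 and X. This rule took 289 of the 546 deposited peaks and left 257 within 15 Mb of an end. It used position alone and no measured value, but the GC content of promoters and the length of genes also differ between interiors and ends where there is no peak.

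HCT116 is a human colorectal carcinoma line, here carrying the ubiquitin ligase TRAIP fused to a mini auxin-inducible degron (mAID), which lets auxin (IAA) remove the protein. The 8 samples were ChIP-Seq libraries made with a γ-H2AX or an H2AX antibody, each without treatment or with IAA, with 2 samples in each of the 4 conditions. All cells had been held in G1 with 20 μM lovastatin for 24 hours and released with 2 mM mevalonic acid, entering S-phase after about 12 hours. Where used, IAA was added before the release, and the paper describes the time of harvest as late S-phase. Peaks were called in each repeat for γ-H2AX with IAA over γ-H2AX without it, and the list holds those found in both repeats. All groups came from the same degron line, and the list holds positions without a height, a score or a value per sample. Depth therefore cannot be read from it, no spread between repeats can be given, and the identity of the cells cannot be checked against marker genes.

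γ-H2AX is the histone variant H2AX phosphorylated around broken DNA or stalled replication forks. TRAIP acts at replication forks, where it ubiquitylates the replicative helicase and helps to clear proteins that block the fork. Most human promoters lie in CpG islands, short stretches rich in G, C and CpG where transcription starts, often on both strands. Runs of G can fold into 4-stranded structures called G-quadruplexes, and an excess of G over C on the coding strand after a start site goes with RNA:DNA hybrids.

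Sequences of 7 interior peaks show what those at promoters are made of. They were taken from the hg38 reference, forward strand, 5′ to 3′, and were limited to peaks of at most 300 bp that overlap no annotated UTR. Capitals mark matches to a G-quadruplex motif, which is 4 runs of at least 3 G, or 3 C on the other strand, separated by 1 to 7 bases. Among such peaks at a protein-coding TSS, the first pair are the most isolated, the third has the highest GC content and the fourth the lowest.

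SUV39H1, chrX:48696955-48697183: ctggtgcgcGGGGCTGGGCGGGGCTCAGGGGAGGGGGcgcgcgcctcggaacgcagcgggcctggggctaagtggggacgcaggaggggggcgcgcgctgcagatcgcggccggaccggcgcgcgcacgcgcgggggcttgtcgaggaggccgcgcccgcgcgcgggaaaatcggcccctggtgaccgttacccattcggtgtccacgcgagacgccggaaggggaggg
NEDD4L, chr18:58043977-58044210: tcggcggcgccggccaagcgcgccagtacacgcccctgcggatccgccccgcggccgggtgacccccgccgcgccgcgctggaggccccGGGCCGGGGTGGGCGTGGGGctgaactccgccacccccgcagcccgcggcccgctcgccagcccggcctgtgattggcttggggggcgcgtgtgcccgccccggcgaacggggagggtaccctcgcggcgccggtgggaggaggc
HNRNPL, chr19:38851961-38852260: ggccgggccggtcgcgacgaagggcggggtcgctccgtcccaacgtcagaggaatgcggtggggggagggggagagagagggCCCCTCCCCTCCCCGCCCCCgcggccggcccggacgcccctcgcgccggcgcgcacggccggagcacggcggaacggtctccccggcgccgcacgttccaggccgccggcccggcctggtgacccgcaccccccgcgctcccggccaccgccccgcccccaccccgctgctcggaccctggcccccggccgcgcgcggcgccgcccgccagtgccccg
TMEM51, chr1:15153255-15153519: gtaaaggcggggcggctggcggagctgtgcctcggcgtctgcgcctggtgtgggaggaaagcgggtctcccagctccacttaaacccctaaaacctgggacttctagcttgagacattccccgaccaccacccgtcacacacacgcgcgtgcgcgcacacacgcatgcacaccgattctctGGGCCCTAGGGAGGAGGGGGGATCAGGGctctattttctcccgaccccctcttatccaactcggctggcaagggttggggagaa

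The SUV39H1 peak has 77.7% GC and 37 CpG sites in 229 bp, and the NEDD4L peak has 82.1% GC and the same number of CpG sites in 234 bp. The HNRNPL peak has 83.7% GC and 50 CpG sites in 300 bp, with a run of C that makes the motif on the other strand. HNRNPL, an RNA-binding protein of the splicing machinery, was chosen after the values were seen. The TMEM51 peak has 62.6% GC and 18 CpG sites in 265 bp.

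The promoter of USF2, a transcription factor of the basic helix-loop-helix family, carried 3 separate peaks, the most of any interior gene.

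USF2, chr19:35268011-35268227: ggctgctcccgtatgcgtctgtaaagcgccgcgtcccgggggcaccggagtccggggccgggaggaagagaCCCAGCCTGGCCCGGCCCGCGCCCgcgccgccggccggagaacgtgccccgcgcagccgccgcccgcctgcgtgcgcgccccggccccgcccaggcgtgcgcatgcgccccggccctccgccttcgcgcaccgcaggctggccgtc
USF2, chr19:35268399-35268627: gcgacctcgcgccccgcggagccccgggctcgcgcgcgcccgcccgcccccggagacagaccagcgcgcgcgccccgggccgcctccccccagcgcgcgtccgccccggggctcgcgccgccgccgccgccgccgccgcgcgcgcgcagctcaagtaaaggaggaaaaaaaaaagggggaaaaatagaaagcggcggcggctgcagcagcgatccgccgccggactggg
USF2, chr19:35269244-35269539: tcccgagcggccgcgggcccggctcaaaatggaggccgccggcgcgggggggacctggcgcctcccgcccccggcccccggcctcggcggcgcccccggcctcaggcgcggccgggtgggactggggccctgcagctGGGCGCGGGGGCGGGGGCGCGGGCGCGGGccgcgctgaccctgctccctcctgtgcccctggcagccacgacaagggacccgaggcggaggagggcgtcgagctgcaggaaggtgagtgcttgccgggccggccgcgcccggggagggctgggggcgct

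Of these, 2 peaks lay upstream of the annotated start and 1 downstream, with gaps of 171 and 616 bp between them. The middle peak holds no G-quadruplex motif, whereas its neighbours have 24 and 29 bases within one.

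Interiors held 78.6% of the sequence of these chromosomes, gaps left out, but 52.9% of the peaks. That gave 12.6 peaks per 100 Mb in 2287 Mb, against 41.2 per 100 Mb in the 624 Mb near the ends. Genes were also sparser in interiors, with 6.17 protein-coding TSS per Mb against 9.40. The TSS was taken as the 5′ end of each GENCODE gene, and a peak with at least 1 bp inside the 2 kb to either side was placed at that TSS. Of the 14102 interior protein-coding TSS, 228 (1.62%, 95% Wilson interval 1.42 to 1.84%) had a peak, whereas 212 of 5868 (3.61%, 3.16 to 4.12%) did so near the ends and 2.2% of all 19970 did. The odds of a peak at an interior TSS were 0.438 times those near an end (exact 95% interval 0.361 to 0.533, two-sided Fisher's exact test, adjusted p = 4.3e-16, adjusted over 11 tests). Intervals and p-values here cover counting error over peaks or genes that come from 1 list, and say nothing of the spread between cultures.

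The share of TSS with a peak was highest next to the ends and lower inside. It was 5.10% in the first 5 Mb, 2.28% from 5 to 10 Mb and 2.77% from 10 to 15 Mb. Inside the interiors it was 2.22% from 15 to 20 Mb, 2.11% from 20 to 30 Mb, 1.35% from 30 to 40 Mb, 1.24% from 40 to 60 Mb, 1.84% from 60 to 80 Mb and 1.14% beyond 80 Mb. The Wilson intervals of the bins on both sides of the 15 Mb line overlapped (2.08 to 3.69% and 1.60 to 3.07%), so no step was detectable there. The peaks just inside the line lay at TMEM51, 15.15 Mb from the end of chromosome 1, and at NOTCH3, a Notch receptor gene, 15.20 Mb from the end of chromosome 19. Just outside it lay a peak at the splicing regulator gene RBFOX2 (14.79 Mb).

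**Figure D1:**
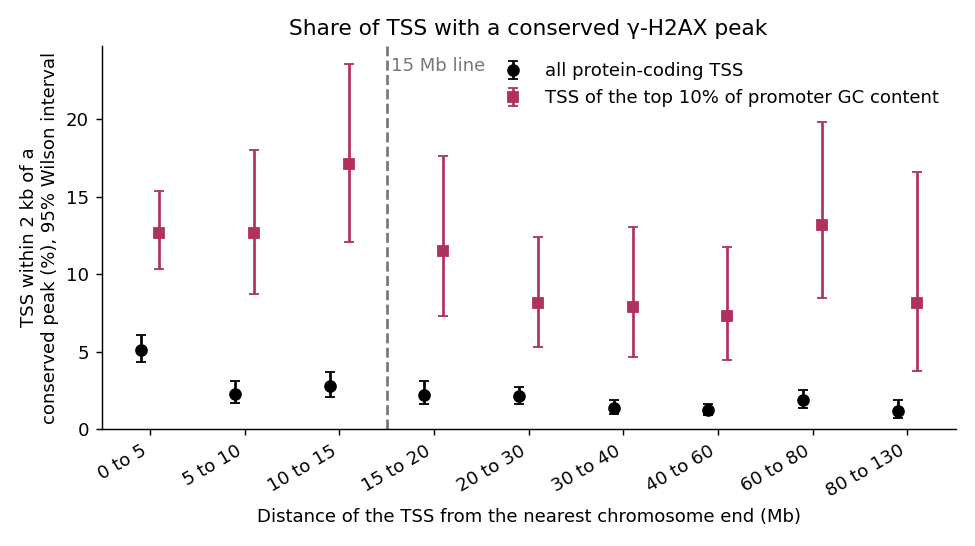
Share of protein-coding TSS within 2 kb of a conserved peak (percent, vertical axis) in bins of distance from the nearest chromosome end (Mb, horizontal axis), for all TSS (black circles) and for the 10% of TSS with the highest promoter GC content (red squares), with 95% Wilson intervals. All TSS run from 5.10% in the first 5 Mb to 1.14% beyond 80 Mb, and the GC-rich promoters from 7.32% to 17.1% with wide intervals.

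The difference between the zones was smaller when promoters of like GC content were compared. Promoters, taken as 1 kb centred on the TSS, were split into 10 equal groups by GC content. The richest group held 17.6% of the TSS near the ends but 6.82% of interior TSS. Interior TSS rose from 0 of 1599 with a peak in the poorest group, which allows a share of up to 0.188% (3 counts of the total, the limit used for each count of 0 here), to 48 of 1261 (3.81%) in the ninth and 88 of 962 (9.15%) in the richest. Across the 10 groups the odds ratio was 0.750 (0.614 to 0.915, Cochran-Mantel-Haenszel chi-square test, adjusted p = 0.00747). By the same chi-square test the call was lost with narrower groups, at an odds ratio of 0.820 with 20 groups (adjusted p = 0.0886) and 0.844 with 50 (adjusted p = 0.147). It was also lost by the chi-square test without chromosomes 19 to 22 (0.835, adjusted p = 0.195) and with the line at 10 Mb (0.808, adjusted p = 0.0568). Over its 11 alternatives the adjusted p ran from 2.21e-06 to 0.195.

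Only the richest group, from 71.2 to 84.5% GC, differed by itself, with 9.15% of interior TSS against 13.3% near the ends (138 of 1035, two-sided Fisher's exact test, p = 0.0368 adjusted over the 10 groups). Its promoters were not alike in the 2 zones, since their median GC content was 73.5% in interiors and 74.9% near the ends. In the group below it, from 67.3 to 71.2%, the shares were 3.81% and 3.40% (Fisher's exact test, adjusted p = 0.863).

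**Figure D2:**
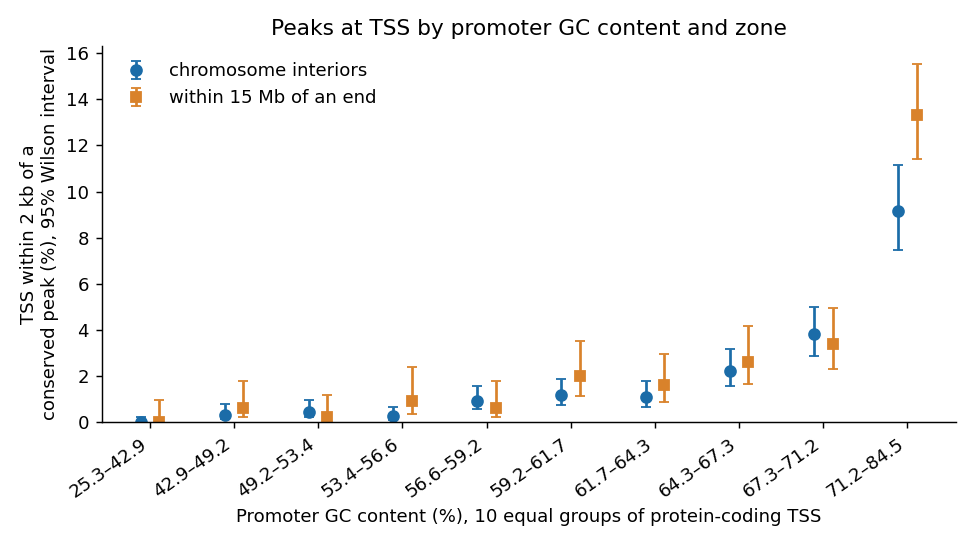
Share of protein-coding TSS with a conserved peak (percent) in 10 equal groups of promoter GC content (percent, lowest to highest), for chromosome interiors (blue circles) and for the 15 Mb next to the ends (orange squares), with 95% Wilson intervals. Both zones climb with GC content, and the intervals part only in the group from 71.2 to 84.5%.

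Most interior peaks lay at promoters, and no difference from the peaks near the ends was detectable in the share at a gene TSS. Of the 289, 228 (78.9%, 73.8 to 83.2%) lay at the TSS of any annotated gene, against 202 of 257 (78.6%) near the ends (odds ratio 1.02, exact interval 0.660 to 1.57, two-sided Fisher's exact test, adjusted p = 1). A protein-coding TSS was present at 205 (70.9%) against 197 (76.7%), with an odds ratio of 0.744 (0.496 to 1.11, Fisher's exact test, adjusted p = 0.177). A further 23 (7.96%, 5.36 to 11.7%) were at the TSS of another kind of gene, of which 12 were lncRNA genes and 2 were miRNA genes. Near the ends there were 5 (1.95%, 0.834 to 4.47%), a difference that was not tested, and 8 of the 23 but none of the 5 were peaks of repeated sequence, described further on. Another 28 lay at the start of an annotated transcript other than the gene's 5′ end, 19 inside a gene body and 14 between genes.

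The 28 peaks at other transcript starts include CIC, a transcriptional repressor gene, PTCH1, the Hedgehog receptor gene, TBX1, a T-box factor gene, and NR4A1, an orphan nuclear receptor gene. These 4 were named after their values were seen, as a counting rule that takes the gene's 5′ end does not credit them. At PTCH1 the peak was 316 bp wide with 71.8% GC, and at NR4A1 it was 223 bp wide with 85.7% GC.

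At protein-coding genes the interior peaks sat close to the start and mostly after it. The midpoint was a median of 168 bp downstream of the TSS (quartiles -56 and 459.5 bp), 155 of 205 (75.6%) lay within 500 bp of it, 133 were downstream and 71 upstream. Against the gene's canonical transcript, 40 midpoints fell in the 5′ UTR, 42 in the first intron, 13 in a coding exon and 110 outside the transcript, which can start further in than the gene. No midpoint fell in a later intron, which allows a share of up to 1.46%, by the same limit of 3 counts. Overlap with any annotated UTR was found for 171 interior peaks (59.2%) and for 175 of 257 near the ends (68.1%), a difference that was not tested. Divergent promoters, which start another annotated gene on the other strand at most 1000 bp upstream, made up 48 of the 228 interior host genes (21.1%) and 38 of 212 near the ends (17.9%), with an odds ratio of 1.22 (0.740 to 2.02, two-sided Fisher's exact test, adjusted p = 0.518).

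Interior peaks had a median GC content of 78.5% (quartiles 75.6 and 81.2%), lower than the 80% of the peaks near the ends. Of the interior peaks, 126 (43.6%) were above the median of the whole list, 79.0%, against 147 of 257 (57.2%), an odds ratio of 0.579 (0.406 to 0.824, two-sided Fisher's exact test, adjusted p = 0.00439). With 75% GC as the line, the shares were 78.5% and 84.8% and the call was lost (Fisher's exact test, adjusted p = 0.0966, with a range from 8.4e-05 to 0.0966 over 10 alternatives). CpG sites were nearly as frequent as base composition predicts, with a median observed-to-expected ratio of 0.960 and a median of 43 sites per peak.

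The extremes of GC content were named by rule. The highest values were 87.3% at KAT6A, a histone acetyltransferase gene, 86.6% beside MIR4692 inside ARAP1 and STARD10, and 86.6% at the lncRNA gene ENSG00000276170 inside ARHGAP23. The lowest were 57.1% at ZNF395, a zinc-finger gene, 58.3% at SRSF1, a splicing factor gene, and 62.6% at TMEM51. Between 60 and 70% GC there were 18 interior peaks and below 60% there were 2, while 125 (43.3%) fell between 75 and 80%.

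Interior peaks were also narrower, at a median of 296 bp (middle 50% from 245 to 381 bp, range 213 to 1038 bp) against 326 bp. The share wider than the list's median of 308 bp was 43.6% against 56.8% (odds ratio 0.588, 0.413 to 0.837, two-sided Fisher's exact test, adjusted p = 0.00488). The call was lost without the peaks of repeated sequence (44.8% against 54.1%, Fisher's exact test, adjusted p = 0.0808) and among peaks at protein-coding TSS alone (45.4% against 54.8%, adjusted p = 0.114), with a range from 0.00138 to 0.114 over 8 alternatives.

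The widest interior peak covered 1038 bp across the TSS of EPHB2, a receptor for ephrins, with its midpoint in the first intron, 82.3% GC and 156 CpG sites. Next came 1016 bp at PLXNA1, a semaphorin receptor gene, with 83.9% GC and 177 CpG sites, and 919 bp at ATXN7L3, a gene for a subunit of the SAGA deubiquitylase module. An 807 bp peak lay at an inner transcript start of CIC, and a 759 bp peak at LRRC75A.

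**Figure D3:**
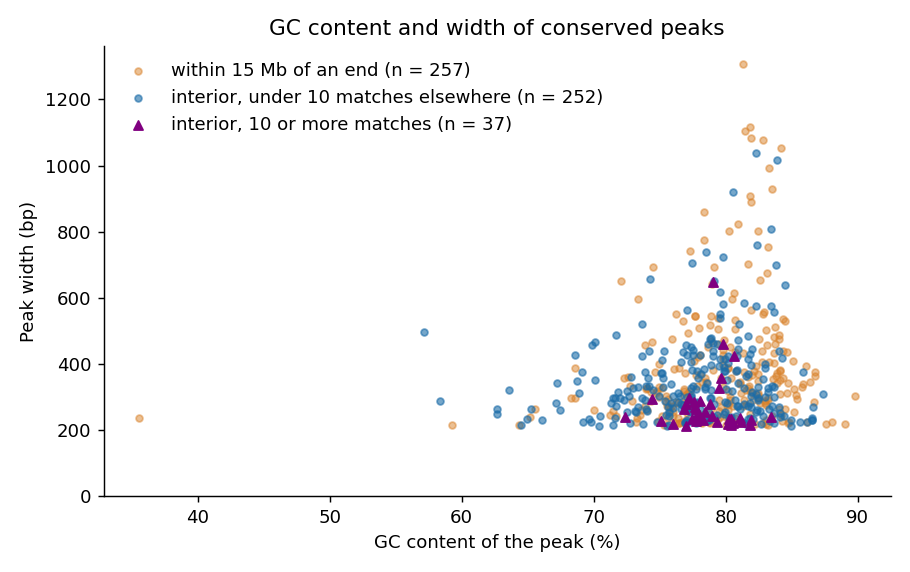
Width (bp, vertical axis) against GC content (percent, horizontal axis) of each conserved peak, near the ends (orange), in interiors with fewer than 10 matches elsewhere in the genome (blue) and in interiors with 10 or more (purple triangles). The 3 widest interior peaks, from 919 to 1038 bp, are all above 80% GC, and the peaks of repeated sequence cluster between 213 and 648 bp.

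Interior host genes were long. Their median length was 62134 bp (quartiles 20520 and 143568 bp, n = 228), against 36305 bp for the 212 host genes near the ends. The share longer than 47255 bp, the median of all host genes, was 58.3% against 41.0% (odds ratio 2.01, 1.35 to 2.99, two-sided Fisher's exact test, adjusted p = 0.00117). Genes without a peak differed in the same direction, with medians of 30630.5 bp in interiors and 20728 bp near the ends. Measured against the median of all genes in its own zone, the share of long host genes was 67.5% in interiors and 69.8% near the ends (odds ratio 0.900, Fisher's exact test, adjusted p = 0.749). The call was also lost without chromosomes 19 to 22 (54.6% against 43.0%, Fisher's exact test, adjusted p = 0.0698), and the adjusted p ran from 0.000694 to 0.749 over 10 alternatives.

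The longest interior host genes were LRBA (751293 bp), which acts in vesicle trafficking, DOCK3 (709272 bp), an activator of Rac, PARD3 (705766 bp), a cell polarity scaffold, PALM2AKAP2 (674188 bp), which includes an anchor of protein kinase A, and PRKCE (536646 bp), a protein kinase C isoform. The shortest were CITED4 (1310 bp), a transcriptional co-activator gene, DYNLT4 (1459 bp), a dynein light chain gene, and FRAT2 (2233 bp), which acts in Wnt signalling.

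Interior peaks stood far apart. The median distance to the nearest other conserved peak was 1183 kb (quartiles 373 and 3628 kb), against 288 kb near the ends. No other peak lay within 1 Mb of 155 interior peaks (53.6%, 47.9 to 59.3%), compared with 50 of 257 (19.5%) near the ends, an odds ratio of 4.77 (3.20 to 7.20, two-sided Fisher's exact test, adjusted p = 4.3e-16). The difference held at longer distances, with 55 interior peaks against 9 over 5 Mb from another, and 20 against 5 over 10 Mb. Interiors also had fewer peaks and fewer genes per Mb, as given above, and their part in this comparison was not tested. The number of other protein-coding TSS within 1 Mb had a median of 19 for interior host genes and also 19 for interior genes without a peak.

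The most isolated promoter peaks were those of BHMT2, a homocysteine methyltransferase gene, and MACIR, a regulator of macrophage inflammation, which were each other's nearest neighbours on chromosome 5 at 24190 kb. Then came CHIC2 on chromosome 4 (23755 kb), TRIM33 on chromosome 1 (23620 kb), which encodes a ubiquitin ligase that acts on SMAD4, and SUV39H1 on chromosome X (22371 kb), which encodes a histone H3 lysine 9 methyltransferase. The peak nearest to TRIM33 was one of repeated sequence at the pseudogene PHKA1P1. Each of these 5 peaks was between 229 and 487 bp wide, with GC content from 71.7 to 78.7%.

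A few interior peaks were crowded. Besides USF2, the genes LCOR, a nuclear receptor co-repressor, MAP3K2, a kinase of the MAP kinase cascade, and PARD3 had 2 peaks each at their TSS, with gaps of 429, 236 and 143 bp. Among peaks more than 1 kb apart, the closest were those of VEZF1, a zinc-finger factor gene, and SRSF1, 18636 bp apart on chromosome 17. Next came POLA2, a subunit of DNA polymerase alpha, 21988 bp from a peak of repeated sequence in the pseudogene SLC22A20P, and ERF, an ETS repressor gene, 29639 bp from the inner CIC peak. Windows of 1 Mb were fixed at whole Mb, so close peaks on both sides of such a line were not counted together. Among these windows, 35 to 36 Mb on chromosome 19 held the most interior peaks, 4, of which 3 were those of USF2. Another 3 windows held 3 peaks each. These were 25 to 26 Mb on chromosome 2 (DNMT3A, DTNB and ASXL2), 66 to 67 Mb on chromosome 11 (among them PACS1 and TMEM151A) and 57 to 58 Mb on chromosome 17 (MSI2, CUEDC1 and VEZF1).

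Chromosome 1 held the most interior peaks, 35, but its share of interior TSS with a peak, 29 of 1752 (1.66%), was close to the 1.62% of all. The highest shares were 8 of 289 (2.77%) on chromosome 20, 19 of 705 (2.70%) on chromosome 17 and 25 of 1056 (2.37%) on chromosome 2, and no chromosome was tested against the rest. Chromosome 21 had 0 of 61 interior protein-coding TSS with a peak, which allows a share of up to 4.92%. Chromosome X held 3 peaks in 125 Mb and 1 of its 653 interior TSS (0.153%), at SUV39H1. Chromosome 16 had 2 of 488 interior TSS with a peak (0.410%), and its ends had 15 of 369 (4.07%). Chromosome 11 went the other way, with 15 of 937 (1.60%) in the interior and 3 of 380 (0.789%) near the ends. The interior share was the lower on every chromosome other than 11 and X. The ends of X had 0 of 206 TSS with a peak, which allows a share of up to 1.46%. The interior peaks of chromosome 13 lay at PDS5B, a cohesin regulator gene, SMAD9, FAM124A and INTS6, an Integrator subunit gene. Those of chromosome 18 lay at SMAD2, CTIF, a translation initiation factor gene, and NEDD4L, a ubiquitin ligase gene.

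Named gene groups were described by the share of their interior TSS that had a peak, to be read beside the 1.62% of all interior protein-coding TSS. Shares near the ends are to be read beside the 3.61% of all TSS there. The lists differ in promoter GC content and were chosen with earlier results known, so no test was made. Among 86 chromatin regulators 8 (9.30%) had an interior peak, and the median promoter GC content of these 86 was 65.4%. They were TET3, which oxidises methylcytosine, SUV39H1, KDM5B, a histone H3 lysine 4 demethylase, PCGF5, a Polycomb subunit, KAT6A, DNMT3A and DNMT3B, the de novo DNA methyltransferases, and ASXL2, a partner of the BAP1 deubiquitylase. The same list had 13 of 50 (26%) near the ends, where the share of all TSS was also higher.

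Among 83 genes of kinase cascades and receptor tyrosine kinases, 7 (8.43%) had an interior peak, beside the 1.62% of all interior TSS, and 3 of 38 (7.89%) did so near the ends, beside 3.61%. The 6 farthest from an end were MAP3K2, the cytokine receptor kinase JAK1, the phosphoinositide kinase subunit PIK3CB, the stress kinase MAPK8 (JNK1), PRKCE and PRKCA. Of the TGF-β and BMP pathway, 4 of 56 (7.14%) had one, namely SMURF1, a ubiquitin ligase for receptors and SMADs, ACVR1B, an activin receptor, and the signal transducers SMAD9 and SMAD2. Near the ends the pathway had 0 of 9, which allows a share of up to 33.3%. Their promoters ranged from 54.6% GC at SMAD9 to 77.4% at SMAD2.

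Among growth-restraining genes, 3 of 61 (4.92%) had an interior peak, which were DUSP7, a phosphatase of ERK, the ubiquitin ligase subunit FBXW7 and NF2, known as merlin. Near the ends 2 of 25 (8%) had one. Neural signalling and axon guidance had 5 of 108 (4.63%) in interiors and 7 of 46 (15.2%) near the ends. Among them were EPHB2, PLXNA1, the semaphorin SEMA4D and the sodium channel subunit SCN8A. Notch and Hedgehog genes had 1 of 30 (NOTCH3) and the Wnt pathway 1 of 66 (AXIN2, a scaffold of the β-catenin destruction complex). The list of SOX, FOX and other developmental transcription factors had 1 of 73 (FOXO3). Interior host genes outside the lists were not counted, such as FRAT2 for Wnt signalling and the transcription factor genes HOXD8 and CDX1. Near the ends these 3 lists had 0 of 17, 3 of 20 (15%) and 0 of 36, where the counts of 0 allow up to 17.6% and 8.33%. Replication and DNA damage response genes had 1 of 87 (1.15%), POLA2, and cytoplasmic ribosomal protein genes 0 of 51, which allows up to 5.88%, with median promoter GC content of 58.3% and 56.1%. Near the ends the former had 2 of 29 (6.90%) and the latter 0 of 27, which allows up to 11.1%. The replication and DNA damage list does not hold the interior host genes SHLD2, TDG and SFR1, which act in DNA repair.

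Another kind of interior peak is made of sequence that occurs many times in the genome. Peaks with at least 10 matches elsewhere on hg38, of at least 90% identity over at least 80% of the peak, were 37 of the 289 interior peaks (12.8%, 9.43 to 17.1%) and 11 of 257 near the ends (4.28%), an odds ratio of 3.28 (1.59 to 7.29, two-sided Fisher's exact test, adjusted p = 0.00117). Per length of sequence they were about as dense in both zones, at 1.62 per 100 Mb in interiors and 1.76 near the ends, whereas the other peaks stood at 11.02 and 39.4 per 100 Mb, so the larger interior share goes with the lower density of the other peaks. These 37 lay on 17 chromosomes, with a median of 611 matches (10 to 1965), and typical peaks of 241 bp and 78.4% GC (medians). Only 9 were at a gene TSS, whereas 16 were in gene bodies and 10 between genes. They were 28 of the 61 interior peaks away from a gene TSS (45.9%). Leaving them out put 204 of 252 interior peaks (81.0%) at a protein-coding TSS, against 197 of 246 (80.1%) near the ends. All but 1 of the 37 shared sequence with one another directly or through a chain of matches, in a group of 47 peaks in all. Matched against itself, the sequence of each lined up best at a shift of 37 to 97 bases, most often 49 bases (12 peaks).

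Such peaks lay inside CTNNA3, RBL1, TXNDC15, SCRN1, FAM20B and GPATCH2, among other genes, and at the TSS of 1 protein-coding gene, TBPL2, named here after their values were seen. Reads from sequence with many copies cannot be placed with certainty, and how the authors treated reads with several placements is not given in the sources used here. The effect of read placement on these peaks was not tested.

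Motifs were counted in windows of 300 bp centred on each interior peak, on both strands, and in windows centred on TSS. A G-quadruplex motif was in 66.1% of interior peaks, GGGCGG (the core of the GC box) in 92.4%, TATAAA in 1.04% and CCAAT in 6.57%. Over all 14102 interior TSS the shares were 27.4%, 52.1%, 9.62% and 34.5%. In the 1671 interior TSS windows with at least 75% GC the shares were 70.8%, 96.3%, 1.08% and 18.1%, and in the 223 interior peak windows with at least 75% GC they were 73.5%, 96.4%, 0.448% and 5.38%. The peak windows are centred downstream of most start sites, so the positions compared differ. CCAAT was in 14 of the 107 such TSS with a peak (13.1%, 7.96 to 20.8%) and in 18.4% of those without, a difference within the interval. Over whole peaks, 69.2% of interior and 75.5% of end peaks held a G-quadruplex motif (odds ratio 0.730, 0.490 to 1.08, two-sided Fisher's exact test, adjusted p = 0.145). With the line at 10 Mb the shares were 67.5% and 79.9% (Fisher's exact test, adjusted p = 0.0079, with a range up to 0.891 over 7 alternatives).

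GC skew, the excess of G over C as a fraction of their sum, was taken over the first 500 bases after each TSS on the coding strand. Its median was 0.0585 at interior TSS with a peak, of which 155 of 228 (68.0%) were positive. At interior TSS without a peak it was 0.0463, with 65.0% positive, and at those without a peak in the richest GC group it was 0.0313, with 60.6% positive. TSS with a peak near the ends had a median of 0.0465, with 68.9% positive, and no difference in skew was tested.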

How the data were processed

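The authors deposited peak positions on hg38 (chromosome, start and end), with no score or value per sample. Per the submitters' processing notes and the methods, reads were aligned with Bowtie2 2.4.2, peaks were called with MACS2 2.1.1 in each repeat for γ-H2AX with IAA over without, and bedtools kept the peaks of both repeats. Starts were read as counted from 0. Depth is not in the deposited list.

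Peaks were compared with GENCODE 44 and the hg38 sequence. Shares were compared between interior peaks and those near the ends with two-sided Fisher's exact tests (thresholds at the median of both for GC content, width and host length) and a Cochran-Mantel-Haenszel test over 10 GC groups, and the 11 p-values were adjusted together by Benjamini-Hochberg. A host gene is any protein-coding gene with its TSS within 2 kb of a peak. Copies were found with blastn 2.17.0. Intervals are 95% Wilson or exact and cover counting error only. Python 3.11.15, pandas 2.3.3, scipy 1.17.1, statsmodels 0.14.6, pysam 0.24.0 and samtools 1.23.1 were used.

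The genes named were the 5 widest, 5 most isolated and 3 closest peaks, and the 5 longest and 3 shortest hosts. Also named were the 3 extremes of GC content, genes with 2 or more peaks and the 3 fullest windows with ties. Chromosomes with 4 or fewer peaks and the 2 peaks on each side of the line were covered too. Of each list up to 6 members were named, but of the chromatin regulators all 8 with an interior peak. Members and lists were chosen with earlier results of these data known. Some genes and sequences that these rules select are not reported here.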

Additional observations from a re-analysis of the deposited data

How the results depend on the processing

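Of 94 alternatives, 13 of them added after seeing the data, 79 kept the direction and side of the threshold. TSS with a peak, isolation, repeated sequence and divergent promoters did so under every alternative run. The odds ratio at equal promoter GC content was no longer past the threshold with 20 groups (0.820), 50 groups (0.844), chromosomes 19 to 22 left out (0.835) or the line at 10 Mb (0.808). The difference in host gene length, in percentage points, was 11.7 without chromosomes 19 to 22, no longer past the threshold, and -2.27, reversed, against each zone's own median. That in GC content was -6.28 with a threshold of 75%. That in width was -9.46 at protein-coding TSS alone and -9.22 without multi-copy peaks. The G-quadruplex motif passed the threshold with the line at 10 Mb (-12.4). The difference in peaks at a gene TSS, past the threshold under none of its 10 alternatives, turned to -0.279 with close peaks merged, -1.48 with a 1 kb window, -3.29 with 5 kb and -0.920 with the line at 20 Mb. That at protein-coding TSS turned to 0.871 without multi-copy peaks. The causes were not tested. No paired analysis was possible because 1 list of positions serves both repeats and gives each peak no measured value. Leaving out a repeat or setting a stricter peak threshold could not be done either.

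Genes were not filtered by expression in HCT116. A list made from both repeats is limited by the repeat with fewer peaks. Replication timing, origins and chromatin state were not used here, so they cannot be told apart from position. Neither read depth nor the mappability of interiors and ends was measured.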
